A study of Mus musculus with 20 samples.

Results

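The cell cycle and DNA replication genes described here are 40 genes taken by symbol from a table of 32400 Ensembl genes, in classes of 15 G1/S replication genes and 25 G2/M genes, and each was found once. They were measured by bulk mRNA sequencing in 20 liver libraries from mice of the strain C57BL/6NTac. Untreated mice on standard chow gave the chow control group (n = 5). The HFHF control group (n = 7) ate a high-fat, high-fructose diet and received vehicle, PBS. The HFHF Flcn gRNA group (n = 8) ate the same diet and received an AAV8 vector with a guide RNA (gRNA) against Flcn, the folliculin gene. The labels and the design text do not state the age or sex of the mice, the time on diet or where the nuclease came from. The vehicle held no virus, so the guide and the vector cannot be told apart in any comparison with the gRNA group, nor can the diet and the vehicle in the comparison of the control groups.

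Dividing cells pass from G1 into S phase, where DNA is copied, and then through G2 into mitosis (M). E2F transcription factors drive the G1/S genes, which load the MCM helicase onto origins and supply nucleotides, and the DREAM complex (an RB family protein with E2F4 and the LIN proteins) or B-MYB and FOXM1 with the same LIN proteins hold down or drive the G2/M genes, which build the spindle and separate the chromosomes. In an adult liver most hepatocytes rest outside the cycle, and they divide after injury or loss of tissue, as do the immune and stromal cells that gather in a damaged liver.

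The promoters of both classes are shown here because each class is known for its own promoter elements. RefSeq promoter windows (GRCm38.p6, 250 bases before to 50 after the start) were matched for 32 of the 40 genes and gave 34 windows, 13 of G1/S and 21 of G2/M genes. The CHR element, here TTTGAA, lay in 71.4% of the G2/M windows, 7.69% of the G1/S windows and 17.9% of all 32851 windows. CCAAT, the NF-Y box, lay in 85.7%, 61.5% and 37.4% of these. An E2F core, TTTNNCGC, lay in 9.52%, 53.8% and 5.17%. CHR and CCAAT stood together in 71.4% of the G2/M windows, 7.69% of the G1/S windows and 6.95% of all windows. Both strands were searched, and these counts describe letters and not bound sites. Below are the 150 bases before the RefSeq start of 3 genes of each class, 5′ to 3′ on the gene's strand, with CHR, CCAAT and E2F matches on either strand in capitals.
Mki67: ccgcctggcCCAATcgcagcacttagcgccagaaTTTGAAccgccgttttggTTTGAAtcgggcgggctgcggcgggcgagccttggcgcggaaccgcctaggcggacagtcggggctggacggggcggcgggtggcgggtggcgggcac
Top2a: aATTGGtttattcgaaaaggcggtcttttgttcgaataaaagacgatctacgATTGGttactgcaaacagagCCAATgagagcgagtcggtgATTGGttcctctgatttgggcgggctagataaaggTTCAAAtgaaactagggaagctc
Cdk1: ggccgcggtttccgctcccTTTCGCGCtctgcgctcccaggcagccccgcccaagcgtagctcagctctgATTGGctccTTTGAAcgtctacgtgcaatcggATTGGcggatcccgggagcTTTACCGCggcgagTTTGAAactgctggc
Cdc6: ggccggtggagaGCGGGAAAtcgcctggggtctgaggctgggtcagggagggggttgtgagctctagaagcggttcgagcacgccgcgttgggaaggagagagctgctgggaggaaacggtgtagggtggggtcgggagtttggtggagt
Mcm6: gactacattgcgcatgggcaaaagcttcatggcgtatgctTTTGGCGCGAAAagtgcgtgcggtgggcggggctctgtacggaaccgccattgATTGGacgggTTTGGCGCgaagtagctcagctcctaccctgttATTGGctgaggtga
Mcm2: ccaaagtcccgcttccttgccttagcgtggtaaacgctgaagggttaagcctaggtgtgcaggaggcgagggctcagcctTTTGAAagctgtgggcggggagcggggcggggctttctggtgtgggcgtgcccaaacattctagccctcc

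The Mki67 stretch is chr7:135716380-135716529 and the Top2a stretch chr11:99024190-99024339, both on the minus strand and upstream of the GENCODE gene. Cdk1 (chr10:69352913-69353062, minus strand) holds 2 CHR, 2 CCAAT and 2 E2F matches, and its last 26 bases lie in the first GENCODE exon. Cdc6 (chr11:98908001-98908150, plus strand, in an intron of the longer GENCODE model) holds 1 E2F match and neither of the other motifs. In Mcm6 (chr1:128359706-128359855, minus strand) the first capital run is 2 E2F matches on opposite strands that overlap each other. Mcm2 (chr6:88898781-88898930, minus strand) is the G1/S gene with a CHR match.

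Chow libraries held between 14131976 and 16285324 estimated counts, HFHF control libraries between 15244760 and 18194089, and gRNA libraries between 13974379 and 19586576. Levels are CPM, counts scaled to a common library size after correction for composition (TMM). The Flcn transcript itself ran from 17.3 to 32.4 CPM in chow, 17.8 to 26.4 in HFHF control and 14.1 to 22.0 in gRNA libraries, so the groups overlapped. A guide RNA against a gene need not lower the amount of that gene's transcript, so this level does not check the labels. Nothing in the labels ties a library to an animal, so the tests speak only for the spread among these libraries, which may be partly technical. The title of gRNA replicate 8 has another number in its second field than the other 19 titles, and what that field marks is not stated. Without this library and with the low-count filter, 29 genes of the set were lower with gRNA than in HFHF control, 23 of them G2/M. Against chow 23 were higher. How many of the 40 genes entered that fit is not given here. With all libraries and the low-count filter, 29 of 37 were lower than in HFHF control and 22 higher than in chow. Of all genes tested, 19.0% were lower and 20.9% higher in these comparisons. The shares over all genes without this library are not given here.

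At the class level the groups stood apart. The mean log2 CPM of the 23 G2/M genes that passed the low-count filter did not overlap between any of the groups. It was -1.31 to -0.55 in chow, 0.88 to 1.90 in HFHF control and -0.52 to 0.34 in gRNA libraries. Chow and gRNA nearly met, at -0.55 and -0.52. Of these 23 genes, 10 reached the filter's level of 0.622 CPM in no chow library, so they passed through the groups where they were higher. The sums below hold all genes of a class, passed or not. For the 14 G1/S genes that passed, the ranges were 1.64 to 1.85, 2.43 to 3.02 and 2.02 to 2.46. Here the HFHF control and gRNA groups overlapped at the edge. Summed over the class, the G2/M level was 13.6 ± 3.18 CPM in chow (SD, n = 5), 67.1 ± 18.3 in HFHF control (n = 7) and 25.6 ± 6.22 in gRNA (n = 8). The G1/S level was 78.4 ± 6.67, 150 ± 14.3 and 109 ± 10.4 CPM. Of these G1/S means, the cyclin gene Ccnd1 alone gave 9.28, 54.5 and 29.4 CPM. A large part of the differences in the G1/S sum therefore lies in this gene. The gap between the classes, G1/S minus G2/M in mean log2 CPM, was 2.30 to 2.97 in chow, 1.05 to 1.75 in HFHF control and 2.11 to 2.68 in gRNA libraries. It was narrower in every HFHF control library than in any other library. The log2 CPM values were computed with a prior count of 2, which raises the values of genes with few counts. The class ranges and the gap depend partly on it. The gap rests on the genes that passed the filter, and these class values are descriptions without a test.

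**Figure D1:**
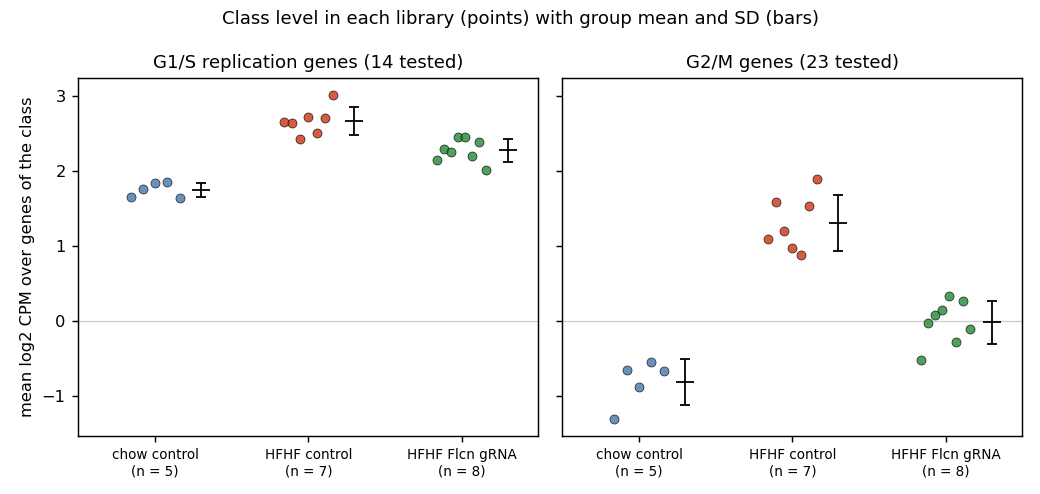
Mean log2 CPM over the tested genes of each class (vertical axis), 1 point per library, with group mean and SD as bars. The G2/M level of all 7 HFHF control libraries, 0.88 to 1.90, lies above that of all chow and gRNA libraries, while the G1/S groups lie closer together.

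Of the 40 genes, 37 passed the low-count filter. Cdc6, Bub1 and Melk did not, and 11 that passed, 10 of them G2/M genes, reached the filter's level of 0.622 CPM in no chow library, so they passed through the groups where they were higher. Counts are therefore given for all 40 genes from a fit without the filter.

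On the HFHF diet, with vehicle, nearly the whole set was higher than on chow. Of the 40 genes, 37 were higher, 1 (Tk1) was lower and 2 (Cdt1 and Mcm7) did not pass, against 19.6% of genes called higher and 15.2% called lower in the same fit of 22795 genes. With the filter 34 of 37 were higher and 1 was lower, against 28.1% higher and 28.9% lower (57.0% either way) of 13667 genes. All 25 G2/M genes were higher. Among the 15 G1/S genes 12 were higher. Without the filter the median log2 fold change was 2.54 over the 25 G2/M genes (1.07 to 3.55) and 1.15 over the 15 G1/S genes (-1.02 to 2.59), against 0.08 over all genes of that fit. Every HFHF control library lay above every chow library for 31 of the 40 genes, including Bub1, which did not pass the filter. Of the 13667 genes that passed it, 18.8% did so. Among the 15 genes that reached the filter's level in all 5 chow libraries, the 3 of G2/M were higher, and of 12 G1/S genes 9 were higher and 1 lower.

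With the Flcn gRNA on the same diet the set was lower than with vehicle. Of the 40 genes 31 were lower, none was higher and 9 did not pass, against 12.0% of genes called lower and 10.5% called higher without the filter. With the filter 29 of 37 were lower, against 19.0% of all genes lower and 19.6% higher (38.6% either way). All 25 G2/M genes were lower, and 6 of 15 G1/S genes: Ccnd1, Mcm2, Mcm3, Mcm5, Mcm6 and Rrm2. Median log2 fold changes without the filter were -1.53 for the 25 G2/M genes (-2.29 to -0.77) and -0.44 for the 15 G1/S genes (-1.19 to 0.29), against -0.01 over all genes. For 13 of the 40 genes, 11 of them G2/M, the gRNA libraries were all below the lowest HFHF control library. For none were they all above the highest. Of the 13667 genes that passed the filter, 6.01% were all below and 5.04% all above. These comparisons share the HFHF control libraries. In bulk RNA fewer cells of a type and less RNA per cell cannot be told apart.

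Fewer of the genes passed the test between the gRNA group and chow. With the filter 22 of 37 genes were higher with gRNA, 1 (Tk1) was lower and 14 did not pass, against 20.9% higher and 21.7% lower (42.6% either way) of all genes. Without it the counts over all 40 were 22, 1 and 17, against 13.3% and 10.6%. Of the 23 tested G2/M genes 12 were higher: Mki67, Top2a, Aurkb, Ccnb1, Ccnb2, Cdc20, Cenpe, Kif20a, Nusap1, Prc1, Racgap1 and Tpx2. The other 11 (Foxm1, Cdk1, Ccna2, Aurka, Plk1, Birc5, Bub1b, Cenpf, Ube2c, Kif11 and Kif23) did not pass, with log2 fold changes of 0.07 to 0.87. Without the filter the median was 1.07 for G2/M and 0.67 for G1/S, against 0.05 over all genes. In 3 of the 40 genes, Ccnd1, Ccne1 and Nusap1, every gRNA library was above every chow library. The same held for 9.01% of the genes that passed the filter.

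**Figure D2:**
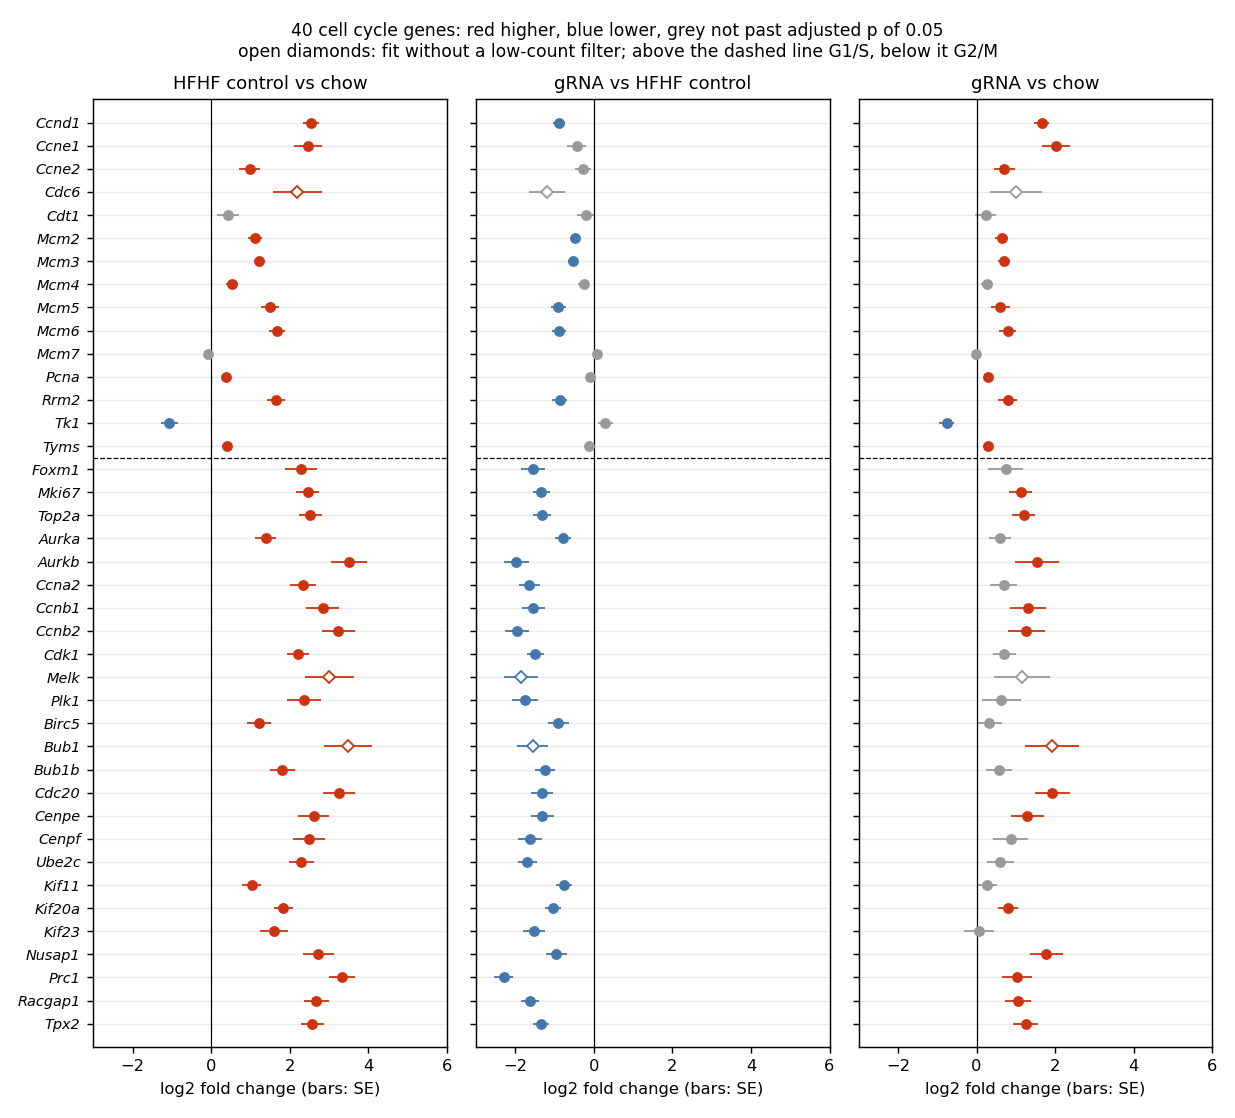
Log2 fold change (horizontal axis) with its SE for the 40 genes in the 3 comparisons. Red marks genes called higher, blue lower and grey those not past an adjusted p of 0.05, and open diamonds are the 3 genes fitted without the filter. The G2/M genes below the dashed line sit right of 0 in the left panel and left of 0 in the middle panel, while Mcm7 stays near 0 in all panels and Tk1 lies left of 0 in the outer panels.

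Among the G1 and S cyclins, Ccnd1 (cyclin D1, which starts the inactivation of RB with CDK4 or CDK6) had the most reads of the whole set on the HFHF diet. The chow libraries were at 7.72, 8.56, 7.95, 12.8 and 9.34 CPM, the HFHF control libraries ran from 43.6 to 65.1 (median 54.4) and the gRNA libraries from 21.2 to 43.7 (median 26.8). All HFHF control and all gRNA libraries were above all chow libraries, and the highest gRNA library just passed the lowest HFHF control library. It rose with diet (log2 fold change 2.55, SE 0.20, adjusted p = 3.29e-09), fell with gRNA (-0.89, SE 0.15, adjusted p = 1.11e-04) and remained higher than in chow with gRNA (1.66, SE 0.19, adjusted p = 1.18e-06). Exons of LTO1 on the other strand cover 23.4% of the exon bases of Ccnd1, and the sources used here do not say whether counting used strand. LTO1 differed by 0.35 with diet (SE 0.12) and -0.09 with gRNA (SE 0.10).

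Cyclin E, the partner of CDK2 at the start of S phase, comes from Ccne1 and Ccne2. Ccne1 was at 0.221, 0.133, 0.151, 0.223 and 0.233 CPM in chow, 0.673 to 1.46 in HFHF control (median 1.12) and 0.421 to 1.11 in gRNA libraries (median 0.732). Chow lay below both other groups, which overlapped. Its log2 fold change was 2.46 with diet (SE 0.35, adjusted p = 3.22e-06) and -0.44 with gRNA (SE 0.23, adjusted p = 0.141; 95% interval -0.92 to 0.05). Ccne2 was at 1.03, 0.796, 0.681, 1.04 and 0.700 CPM in chow, 0.828 to 2.58 in HFHF control (median 1.76) and 0.842 to 1.95 in gRNA (median 1.32). All its groups overlapped; it rose with diet (0.98, SE 0.27, adjusted p = 0.00320), and with gRNA the difference was -0.27 (SE 0.21, adjusted p = 0.330).

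Origin licensing loads the hexamer of Mcm2 to Mcm7 onto DNA with the help of Cdc6 and Cdt1. Cdc6 held 8 counts over the 5 chow libraries, at 0, 0, 0.0757, 0.149 and 0.389 CPM, against 0.168 to 1.04 in HFHF control (median 0.533) and 0 to 0.432 in gRNA (median 0.213). Without the filter it was higher with diet (2.19, SE 0.62, adjusted p = 0.00556), and with gRNA its difference was -1.19 (SE 0.45, adjusted p = 0.0586). Cdt1 ran from 0.700 to 2.35 CPM in chow, 1.45 to 2.89 in HFHF control and 0.900 to 2.51 in gRNA. Its differences of 0.43 with diet (SE 0.27, adjusted p = 0.174) and -0.20 with gRNA (SE 0.23, adjusted p = 0.513) did not pass.

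The helicase subunits did not move alike. Mcm2 was at 1.91, 2.72, 3.71, 2.82 and 3.03 CPM in chow, 5.06 to 8.50 in HFHF control (median 5.69) and 3.37 to 5.92 in gRNA (median 4.35). Mcm5 was at 0.809, 1.33, 1.89, 1.63 and 1.71 CPM in chow, 3.00 to 6.55 in HFHF control (median 3.76) and 1.60 to 3.04 in gRNA (median 2.21). Both stood above chow in every HFHF control library, and their gRNA libraries overlapped both other groups. Mcm5 rose with diet (1.51, SE 0.23, adjusted p = 9.64e-06) and fell with gRNA (-0.91, SE 0.19, adjusted p = 5.02e-04).

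Mcm3 ran from 6.00 to 7.89 CPM in HFHF control (median 6.51) and from 2.92 to 5.86 in gRNA libraries (median 4.73), without overlap, after 2.43, 2.92, 2.88, 2.60 and 3.73 CPM in chow. Its rise with diet was 1.23 (SE 0.15, adjusted p = 4.59e-07). Mcm6 was likewise apart, at 7.14 to 13.5 CPM in HFHF control (median 9.03) against 2.46 to 6.91 in gRNA (median 5.10), after 2.35, 2.92, 3.86, 2.90 and 2.49 CPM in chow. It fell by 0.89 on the log2 scale with gRNA (SE 0.17, adjusted p = 2.47e-04). The changes of Mcm4 were smaller, 0.53 with diet (SE 0.16, adjusted p = 0.00678) and -0.26 with gRNA (SE 0.13, adjusted p = 0.135).

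Mcm7, the remaining subunit, was at 11.8, 10.7, 12.7, 11.9 and 10.3 CPM in chow, 10 to 12.5 in HFHF control (median 10.5) and 10.4 to 12.7 in gRNA libraries (median 10.9). The groups overlapped throughout. Its log2 fold change was -0.09 with diet (SE 0.08, adjusted p = 0.314), with a 95% interval of -0.26 to 0.07 that lies below the interval of Mcm4, the subunit with the next smallest change (0.19 to 0.86). Per kilobase of exon, Mcm7 was the most abundant subunit in chow at 2.60 CPM, against 0.369 to 1.11 for the others, and in HFHF control it was at 2.43 against 0.884 to 2.0. Exons of Ap4m1 on the other strand cover 7.25% of its exon bases, and Ap4m1 stood at means of 11.8, 10.4 and 11.1 CPM in the groups, its part in the level of Mcm7 not being tested.

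The replication clamp Pcna and the nucleotide enzymes split further. Pcna was at 20.7, 23.8, 20.3, 20.8 and 19.3 CPM in chow, 25.4 to 30.6 in HFHF control (median 26.6) and 23.7 to 28.9 in gRNA (median 25.6). Every HFHF control library was above chow, yet the rise was 0.38 (SE 0.06, adjusted p = 3.66e-05), a 1.30-fold change, and with gRNA the difference was -0.09 (SE 0.06, adjusted p = 0.220). Rrm2, the small subunit of ribonucleotide reductase, went from 2.43, 2.79, 1.74, 2.53 and 1.95 CPM in chow to 4.08 to 9.88 in HFHF control (median 6.67), and was 2.67 to 6.08 with gRNA (median 3.77). It rose (1.65, SE 0.24, adjusted p = 3.79e-06) and fell (-0.87, SE 0.19, adjusted p = 9.00e-04).

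Tyms, thymidylate synthase, was at 5.0, 5.24, 5.90, 4.61 and 4.36 CPM in chow, 5.66 to 7.22 in HFHF control (median 6.71) and 4.94 to 7.79 with gRNA (median 6.02). It rose with diet (0.40, SE 0.12, adjusted p = 0.00523), and its groups overlapped. Tk1, the thymidine kinase of the salvage pathway, went the other way, from 13.6, 11.3, 20.2, 10 and 7.63 CPM in chow to 4.53 to 7.26 in HFHF control (median 6.45) and 3.95 to 9.83 with gRNA (median 7.49). Every HFHF control library was below every chow library (-1.06, SE 0.21, adjusted p = 2.16e-04), as was the case for 18.1% of all genes tested. Afmid, a liver enzyme gene on the other strand whose exons share 83 bases with Tk1 (1.60%), went from 122 CPM in chow to 39.2 in HFHF control and 67.7 with gRNA (-1.64 with diet, SE 0.20); its part in the Tk1 values was not tested.

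**Figure D3:**
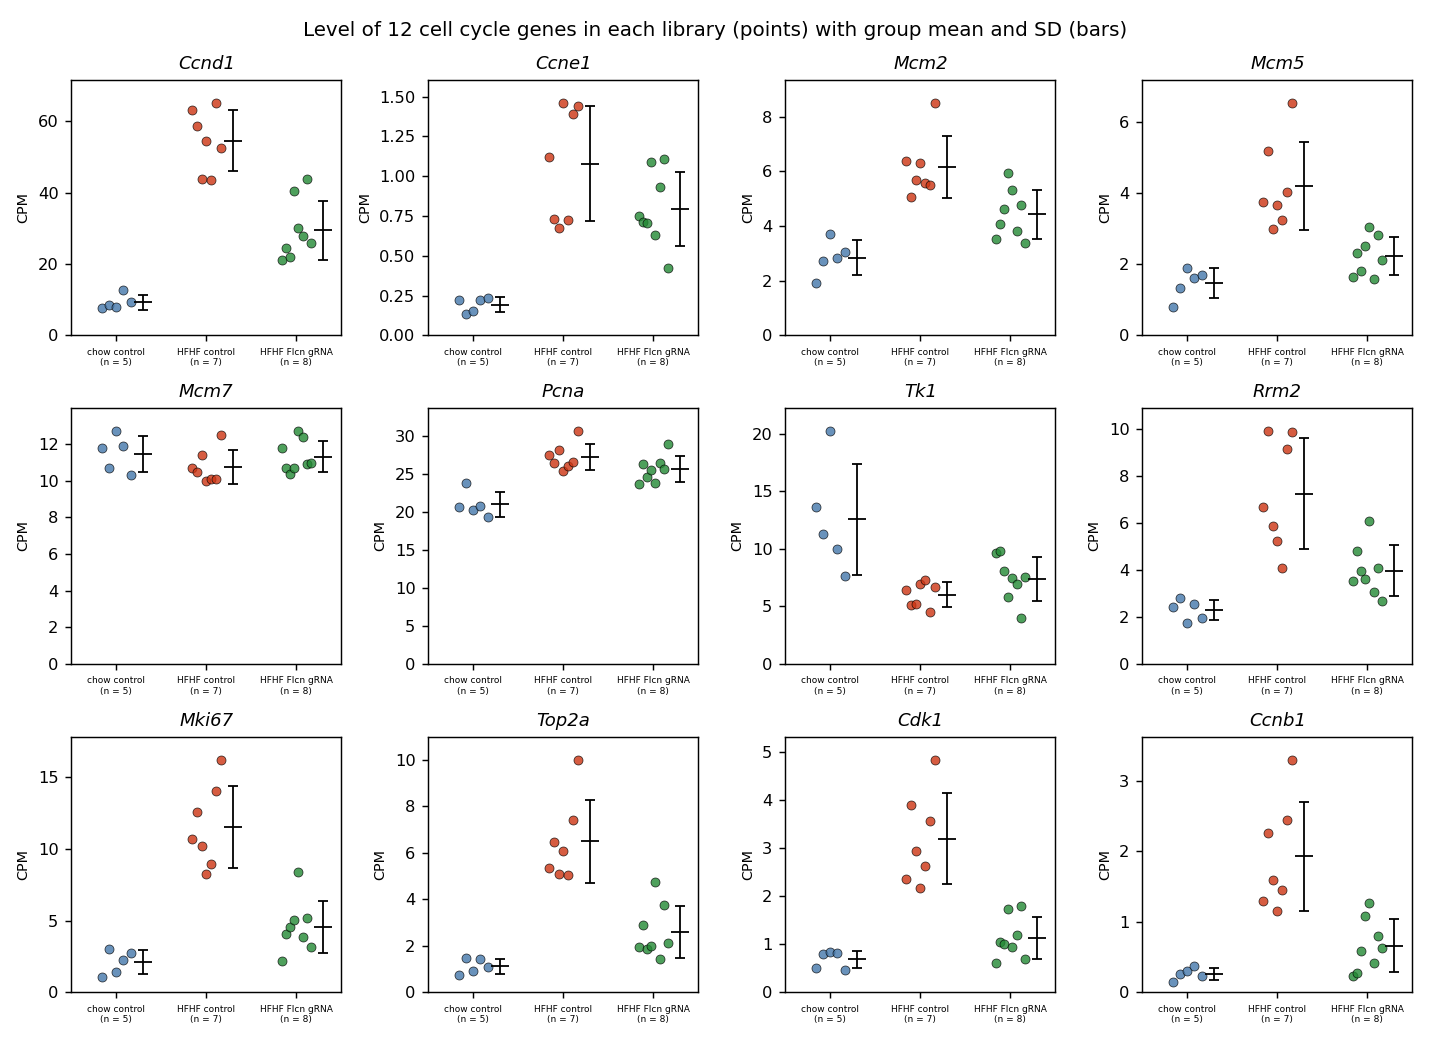
Level in CPM (vertical axes from 0) of 12 of the genes in each library, with group mean and SD as bars. Mcm7 lies at 10 to 12.7 CPM in all groups and Tk1 is highest in chow, while Mki67, Top2a, Cdk1 and Ccnb1 are highest in HFHF control libraries.

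Turning to G2/M, Mki67 (the Ki-67 protein that coats mitotic chromosomes and marks cycling cells) was at 1.03, 2.99, 1.44, 2.23 and 2.72 CPM in chow, 8.22 to 16.2 in HFHF control (median 10.7) and 2.17 to 8.36 with gRNA (median 4.32). The HFHF control libraries were all above chow, and the highest gRNA library just passed the lowest of them. It rose with diet (2.46, SE 0.29, adjusted p = 5.55e-07), fell with gRNA (-1.34, SE 0.22, adjusted p = 7.59e-05), and stayed above chow (1.12, SE 0.29, adjusted p = 0.00419). Top2a, the topoisomerase that untangles sister chromatids, was at 0.735, 1.46, 0.908, 1.41 and 1.09 CPM in chow, 5.03 to 10 in HFHF control (median 6.10) and 1.45 to 4.75 with gRNA (median 2.05). No gRNA library reached an HFHF control library (-1.32, SE 0.22, adjusted p = 5.01e-05). Foxm1, the transcription factor of the G2/M genes, was at 0.147, 0.265, 0.303, 0.817 and 0.156 CPM in chow, 0.838 to 2.27 in HFHF control (median 1.74) and 0.150 to 0.900 with gRNA (median 0.578). It rose (2.28, SE 0.41, adjusted p = 6.69e-05) and fell (-1.54, SE 0.31, adjusted p = 4.79e-04).

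The 8 mitotic kinases and cyclins had median log2 fold changes without the filter of 2.63 with diet and -1.69 with gRNA. Cdk1, the kinase that drives entry into mitosis, was at 0.515, 0.796, 0.832, 0.817 and 0.467 CPM in chow, 2.17 to 4.84 in HFHF control (median 2.95) and 0.600 to 1.79 with gRNA (median 1.02). The HFHF control libraries stood above all others (2.21 against chow, SE 0.28, adjusted p = 9.90e-07). With gRNA its difference from chow was 0.71 (SE 0.30, adjusted p = 0.0575). Its partner Ccnb1, cyclin B1, was at 0.147, 0.265, 0.303, 0.371 and 0.233 CPM in chow, 1.16 to 3.30 in HFHF control (median 1.60) and 0.225 to 1.27 with gRNA (median 0.609). It rose (2.84, SE 0.42, adjusted p = 6.19e-06) and fell (-1.54, SE 0.30, adjusted p = 3.15e-04).

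Ccnb2, cyclin B2, was at 0.294, 0.199, 0, 0.149 and 0.389 CPM in chow, 1.11 to 2.78 in HFHF control (median 1.95) and 0.300 to 0.939 with gRNA (median 0.427). Aurkb, the kinase of the chromosomal passenger complex, rose with diet (3.51, SE 0.46, adjusted p = 1.35e-06), from 6 counts over the chow libraries at 0 to 0.156 CPM to 0.726 to 1.60 CPM, passing the filter through HFHF control libraries alone, and fell with gRNA to 0.0750 to 0.514 (-1.97, SE 0.31, adjusted p = 2.96e-05). Ccna2 (cyclin A2), Aurka and Plk1 rose by 2.33, 1.39 and 2.36 with diet and fell by 1.64, 0.78 and 1.74 with gRNA. Melk, fitted without the filter from 5 counts in chow, was higher with diet (3.01, SE 0.63) and lower with gRNA (-1.85, SE 0.44).

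Genes of the spindle checkpoint and the anaphase-promoting complex followed. The checkpoint holds anaphase back until chromosomes attach, and the complex then tags cyclins and securin for breakdown. Ube2c, the ubiquitin-conjugating enzyme of that complex, was at 0.221, 0.265, 0.454, 0.446 and 0.467 CPM in chow, 1.16 to 3.23 in HFHF control (median 1.50) and 0.362 to 0.836 with gRNA (median 0.560). It rose (2.30, SE 0.32, adjusted p = 2.58e-06) and fell (-1.69, SE 0.25, adjusted p = 1.31e-05). Cdc20, the activator of the complex, was at 0.147, 0.133, 0.378, 0.371 and 0.311 CPM in chow, 1.06 to 3.84 in HFHF control (median 2.62) and 0.362 to 1.58 with gRNA (median 1.02). Its rise was 3.26 (SE 0.41, adjusted p = 8.25e-07), and with gRNA it remained higher than in chow (1.93, SE 0.44, adjusted p = 0.00122). Exons of Elovl1 on the other strand cover 2.84% of the exon bases of Cdc20. Elovl1 differed by 0.28 with diet (SE 0.07) and -0.23 with gRNA (SE 0.06), and its part in the Cdc20 values was not tested. Bub1, a checkpoint kinase, had 4 counts over the chow libraries and without the filter was higher with diet (3.48, SE 0.61) and lower with gRNA (-1.56, SE 0.39). Bub1b, the kinetochore genes Cenpe and Cenpf, and Birc5 (survivin) rose by 1.22 to 2.61 and fell by 0.90 to 1.63.

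Prc1, which bundles the microtubules of the central spindle, was at 0.0735, 0.265, 0.227, 0.594 and 0.545 CPM in chow, 2.07 to 4.95 in HFHF control (median 2.97) and 0.469 to 0.987 with gRNA (median 0.638). It rose 9.99-fold (3.32, SE 0.33, adjusted p = 3.56e-08) and fell to 0.205 of the HFHF control level (-2.29, SE 0.24, adjusted p = 2.82e-07). Racgap1, a centralspindlin subunit, was at 0.221, 0.465, 0.378, 0.743 and 0.467 CPM in chow, 1.90 to 4.69 in HFHF control (median 2.93) and 0.375 to 1.29 with gRNA (median 0.970), again without overlap between the diet groups. Nusap1, a microtubule-binding protein of the spindle, rose (2.73, SE 0.40) and fell less (-0.95, SE 0.27), so that every gRNA library (0.469 to 2.22 CPM) stayed above every chow library (0.147, 0.465, 0.303, 0.149 and 0.311 CPM).

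The motor Kif11, which pushes the spindle poles apart, changed by 1.03 with diet (SE 0.24, adjusted p = 8.83e-04) and -0.76 with gRNA (SE 0.20, adjusted p = 0.00413). It was at 0.735, 1.06, 1.21, 1.93 and 1.48 CPM in chow. Kif20a, Kif23 (centralspindlin's motor) and Tpx2 (the activator of Aurka) rose by 1.84, 1.60 and 2.58 and fell by 1.04, 1.52 and 1.34. Cdc23 exons on the other strand cover 29.3% of Kif20a, and Cdc23 differed by -0.23 with diet (SE 0.09) and 0.04 with gRNA (SE 0.08). Opposite-strand exons of Ints8, Exosc9 and Rccd1 cover 17.4% of Ccne2, 12.5% of Ccna2 and 11.1% of Prc1, and their differences were -0.34, 0.17 and -0.27 with diet and 0.05, -0.05 and 0.06 with gRNA.

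Further genes of the pathway were read from the same fits. Of 40 tested from a list of 42 other replication genes, 21 rose, 5 fell and 14 did not pass (median 0.27), where 28.1% of all genes tested were higher and 28.9% lower. Of 37 tested from 42 other mitosis genes, 34 rose and none fell (median 1.74). With gRNA, 8 of the replication genes fell and 1 rose (median -0.05), a share of falls near the 19.0% of all genes tested (19.6% rose), while 30 of the mitosis genes fell and 1 rose (median -1.07). Uhrf1, which copies DNA methylation marks after replication, went from 0.175 ± 0.0817 CPM in chow (SD, n = 5) to 2.16 ± 0.752 in HFHF control (n = 7) and 0.815 ± 0.413 with gRNA (n = 8). DNA ligase Lig1 rose by 1.44 (SE 0.18) and fell by 0.59 (SE 0.15), and the GINS subunit Gins2 rose by 1.86 (SE 0.26) and fell by 1.20 (SE 0.20); exons of Gse1 on the other strand cover 67.3% of Gins2.

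Replication genes that fell with diet were Mcm10, Orc3, Pold2, Rfc1 and Rfc5, and Rfc1, the large clamp loader subunit, rose with gRNA (0.31, SE 0.06). Mcm10 stood at 66.0 ± 22.0 CPM in chow (SD, n = 5), 29.6 ± 8.25 in HFHF control (n = 7) and 40.4 ± 8.48 with gRNA (n = 8). Among the mitosis genes, the condensin gene Smc4 rose by 0.91 (SE 0.08) and fell by 0.41 (SE 0.07). The kinetochore gene Spc25 rose by 2.26 (SE 0.21), and its difference with gRNA was -0.28 (SE 0.16, adjusted p = 0.172). Pttg1, securin, was the gene that rose with gRNA (0.26, SE 0.08). Cyclin F (Ccnf) was lower with gRNA than in chow (-0.72, SE 0.21, adjusted p = 0.00941).

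Of 19 transcription factor and RB family genes tested from 20, 4 rose and 5 fell with diet, and 5 rose and 3 fell with gRNA (medians -0.04 and -0.03). These shares lie near those of all genes tested, 28.1% higher and 28.9% lower with diet and 19.6% and 19.0% with gRNA, and say nothing particular of the family. E2f2 and E2f1, activators of the G1/S genes, rose with diet by 1.90 (SE 0.23) and 0.73 (SE 0.16), and with gRNA their differences of -0.42 and -0.19 did not pass (adjusted p = 0.0517 and 0.250). Of the pocket proteins, Rbl1 (p107), itself an E2F target, rose by 1.64 (SE 0.23) and fell by 0.71 (SE 0.18). Rbl2 (p130), the pocket protein of DREAM in resting cells, went the other way and fell by 0.52 with diet (SE 0.09) and rose by 0.39 with gRNA (SE 0.08). Lin54, which binds the CHR element in DREAM, fell by 0.25 (SE 0.10) and rose by 0.47 (SE 0.09).

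The repressors E2f7 and E2f8 separated with gRNA. E2f8 was at 3.13 ± 2.0 CPM in chow (SD, n = 5), 2.64 ± 0.860 in HFHF control (n = 7) and 8.98 ± 2.37 with gRNA (n = 8), a rise of 1.76 (SE 0.27, adjusted p = 3.65e-05). E2f7 was at 0.525 ± 0.178 CPM in HFHF control (SD, n = 7) and 0.233 ± 0.102 with gRNA (n = 8), a fall of 1.19 (SE 0.39, adjusted p = 0.0201). On the other strand of E2f8 lies the transcript Gm2788, which covers 11.2% of its exon bases. Gm2788 went from 8.18 to 28.7 CPM with gRNA (1.81, SE 0.20), and its part in the E2f8 values was not tested.

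Of the other cyclins and kinases 8 of 11 tested rose with diet and 1 (Cks2) fell, against 28.1% and 28.9% of all genes tested. With gRNA 3 fell and none rose, against 19.0% and 19.6%. Wee1, the kinase that holds Cdk1 inactive, went from 1.84 ± 0.497 CPM in chow (SD, n = 5) to 9.02 ± 2.41 in HFHF control (n = 7), and with gRNA it was 7.66 ± 3.13 (n = 8; -0.23, SE 0.23, adjusted p = 0.460). Its relative Pkmyt1 rose by 2.03 (SE 0.41) and fell by 2.15 (SE 0.34). Cdk4 and Cdk6, the partners of cyclin D1, rose by 0.35 (SE 0.09) and 0.49 (SE 0.11) with diet and differed by 0.04 (SE 0.08) and 0.06 (SE 0.09) with gRNA. Exons of Tspan31 on the other strand cover 19.7% of Cdk4.

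Of 6 CDK inhibitor genes tested from 8, 5 rose with diet and none fell, against 28.1% and 28.9% of all genes tested. Cdkn1a, which encodes p21, went from 6.80 ± 2.66 CPM in chow (SD, n = 5) to 36.5 ± 10.5 in HFHF control (n = 7), and with gRNA to 12.9 ± 6.04 (n = 8). It rose by 2.43 (SE 0.33, adjusted p = 6.50e-06) and was the inhibitor gene that fell with gRNA (-1.48, SE 0.26, adjusted p = 2.11e-04). Cdkn2c (p18) rose by 1.76 (SE 0.25). Cdkn3, a phosphatase of CDKs, held 1 count in the chow libraries and 128 in HFHF control, a ratio of CPM of 67.4 (95% counting interval 11.9 to 2684).

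**Figure D4:**
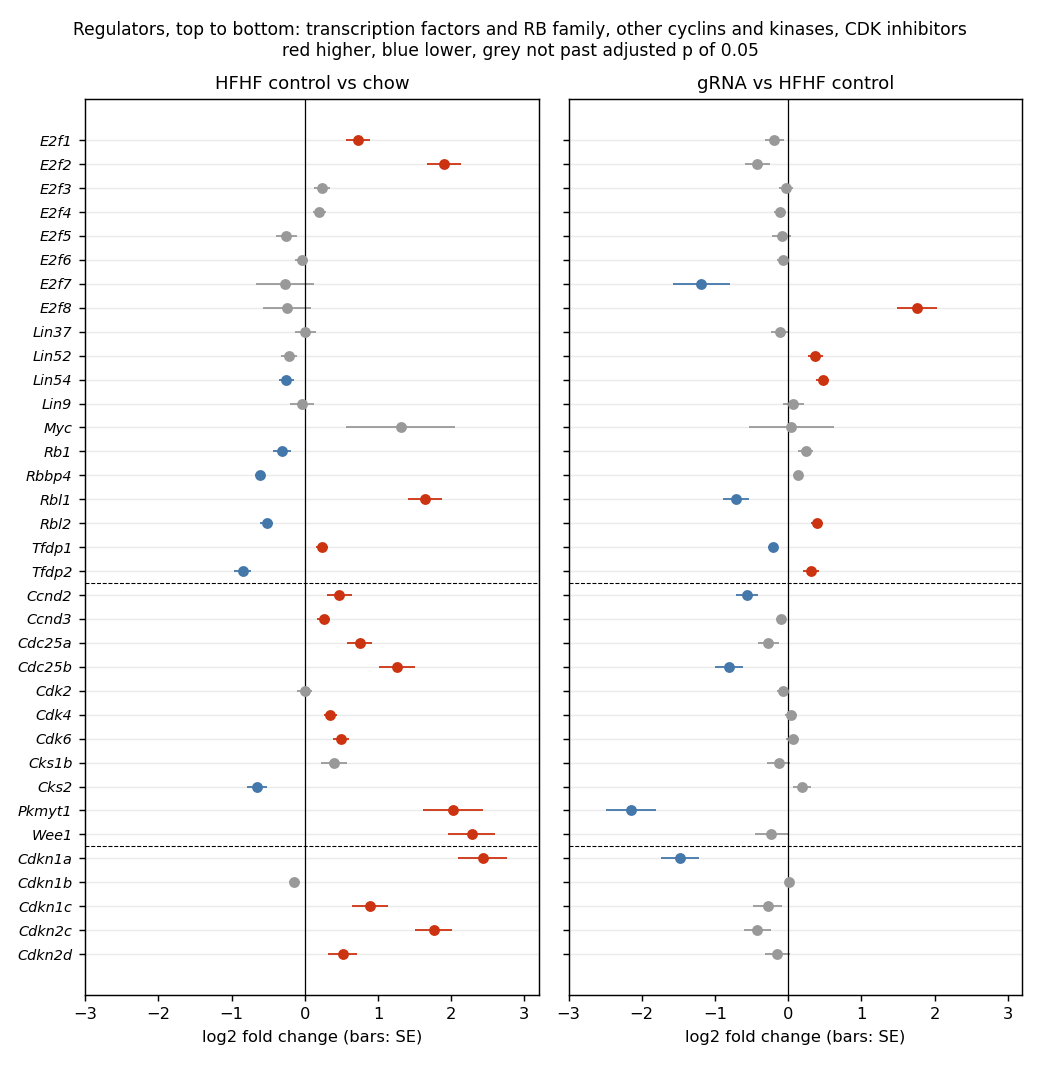
Log2 fold change (horizontal axis) with its SE for the tested transcription factors and RB family genes, other cyclins and kinases, and CDK inhibitors; Cdkn3, with 1 count in chow, is left out. E2f8 lies at 1.76 and E2f7 at -1.19 in the right panel, and Cdkn1a at 2.43 and -1.48 in the left and right panels.

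Of the cell type markers, those of monocyte-derived macrophages, stellate cells and neutrophils moved in the direction of the G2/M genes. The other lists were mixed or, for hepatocytes, opposite. Over all genes tested 28.1% rose and 28.9% fell with diet, and 19.6% rose and 19.0% fell with gRNA. All 10 monocyte-derived macrophage markers rose with diet and 8 of 10 fell with gRNA. Their summed level was 29.4 to 47.0 CPM in chow, 172 to 420 in HFHF control and 87.3 to 224 with gRNA. All 9 stellate cell markers rose and 7 fell, at summed levels of 198 to 250, 599 to 843 and 254 to 386 CPM. Their median log2 fold changes were 1.24 with diet and -0.77 with gRNA. Col1a1, a collagen gene among them, went from 2.81 to 82.5 and 9.01 CPM on average. The 3 neutrophil markers tested, of 6, rose and fell (2.06 to 5.21, 7.37 to 11.7 and 3.07 to 9.56 CPM). Ly6g was near the floor in all groups, with 0 counts in chow, 3 in HFHF control and 2 in gRNA libraries.

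The lymphocyte markers split: of 10 tested from 11, 5 rose and 1 fell with diet, and 5 rose and 5 fell with gRNA, and the T cell gene Cd3e was among those that fell (-1.18, SE 0.27). Their sum was 7.06 to 8.46 CPM in chow, 9.28 to 19.4 in HFHF control and 9.52 to 20.1 with gRNA. Of 7 Kupffer cell markers 2 rose and 3 fell with diet, and 4 rose and 1 fell with gRNA (99.3 to 192, 139 to 340 and 152 to 342 CPM). Of 4 cholangiocyte markers tested from 6, 2 rose and 1 fell with diet and 3 fell with gRNA (19.1 to 29.2, 18.9 to 35.5 and 18.1 to 23.5 CPM).

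Endothelial markers (6) gave 1 rise and 2 falls with diet and 3 rises with gRNA (143 to 173, 122 to 184 and 139 to 236 CPM), and erythroid markers (6 tested of 7) gave 1 rise and 2 falls, then 2 rises (311 to 491, 294 to 804 and 263 to 642 CPM). The hepatocyte markers, which define the labelled tissue, summed to 78084 to 100489 CPM in chow, 45280 to 66365 in HFHF control and 51595 to 83366 with gRNA. In this sum the chow and HFHF control groups did not overlap. Of the 9 markers, 8 fell with diet and 4 rose with gRNA. The part of any of these cells in the cell cycle results was not tested.

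**Figure D5:**
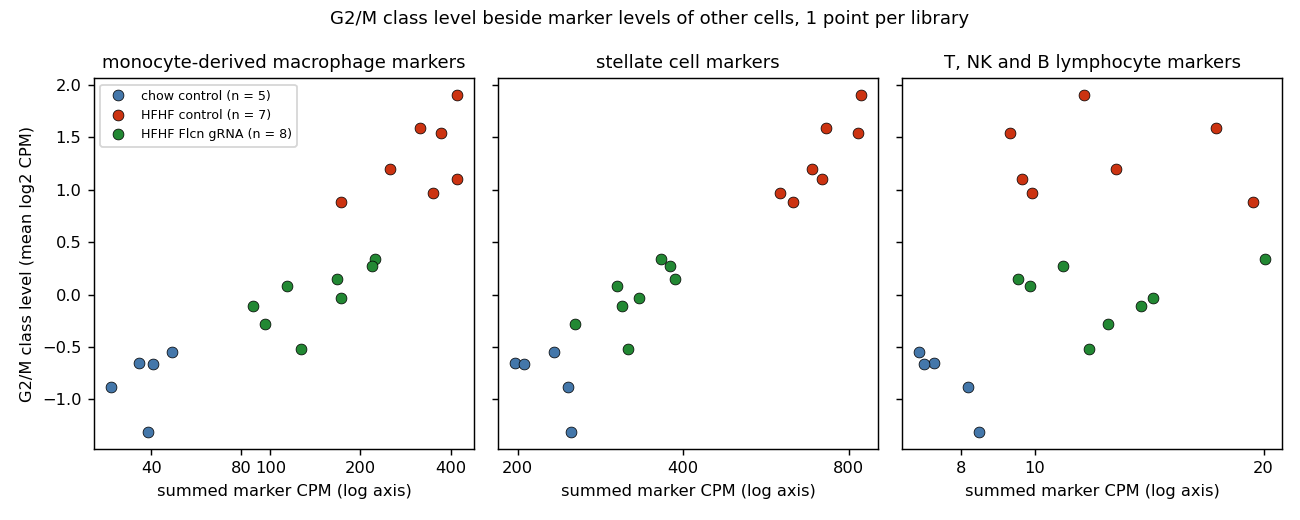
G2/M class level (vertical axis, mean log2 CPM) beside the summed CPM of 3 marker lists (horizontal log axes), 1 point per library. HFHF control libraries lie highest on both axes for stellate cell markers (599 to 843 CPM), whereas for lymphocyte markers the HFHF control and gRNA libraries overlap (9.28 to 19.4 and 9.52 to 20.1 CPM).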

How the data were processed

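The values deposited by the authors are expected counts, estimates per gene of which 77.8% of those of at least 1 were whole numbers. Per the labels' protocols, the mRNA kit was KAPA mRNA HyperPrep, the adapters carried molecular identifiers and sequencing was single-end. GRCm38 is the build in the submitters' processing notes. No source used here names the aligner, the counter or the annotation, or says whether strand or the identifiers were used. The interval of a ratio of counts (Cdkn3) covers counting error only, whereas intervals of fold changes carry the spread among libraries. GENCODE mouse release M21 gave symbols for 32325 of 32400 genes. Left out were 22 construct features, a share of 2.2e-06%, and 1 column that matched no sample.

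Counts were rounded. Genes kept by filterByExpr (13667) entered 1 edgeR 4.0.16 quasi-likelihood fit in R 4.3.3 with the 3 groups, TMM scaling and 17 residual degrees of freedom. Adjusted p-values are Benjamini-Hochberg values over all genes tested, with a threshold of 0.05. Fold changes are on the log2 scale with SE, and 95% intervals use the residual degrees of freedom. "With diet" is HFHF control against chow control, and "with gRNA" is gRNA against HFHF control. The fit without the filter took 22795 genes with at least 1 count. Alternatives were RLE and upper-quartile scaling, DESeq2 1.42.0, no filter, fits of 2 groups only, and leaving out each library. No library repeated another of its group (59 pairs, lowest chi-square per degree of freedom 12.3). The genes and lists were chosen with earlier results of these data known. Any of the 40 genes may be named, with library values for 15 of them and for the gene of smallest p in each role and comparison; from other lists, the 3 of smallest p in each comparison (up to 3 for cell markers) and those of minority direction. Genes on the opposite strand are named for their overlap alone.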

Additional observations from a re-analysis of the deposited data

Results flagged for a closer look

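In 5 of 126 sets of libraries checked (the 40 genes and both class levels in each group), the highest library stood far from the nearest other library relative to the range of its group; chance flags about 1 in 20 groups. HFHF control replicate 7 was at 8.50 CPM for Mcm2, with the nearest other library at 6.39, and at 13.5 CPM for Mcm6, with the nearest at 9.76. This library was also the highest of its group for both class levels. In the gRNA group Kif11 was at 2.60 CPM in replicate 5 (nearest 1.73) and Nusap1 at 2.22 CPM in replicate 7 (nearest 1.12). In chow replicate 4 Foxm1 was at 0.817 CPM (nearest 0.303).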

How the results depend on the processing

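No call of the tested genes in the diet or gRNA comparison was lost under RLE or upper-quartile scaling, DESeq2, no filter, fits of 2 groups only, or without any single library. Cdt1 passed with diet without chow control replicate 1 (0.697, adjusted p = 0.0414), and Pcna with gRNA under upper-quartile scaling (-0.147, adjusted p = 0.0444). The median log2 fold change of the G1/S genes with diet was 0.934 to 1.256 when each library was left out, the highest without chow control replicate 3. Against chow, the calls of the gRNA group depended more on single libraries: of the 740 fits of a gene without 1 library, 38 lost a call and 9 gained one, and the G2/M genes called higher numbered 9 to 14. The call of Tyms there was also lost with DESeq2 (adjusted p = 0.0564), without the filter (0.0566) and in the fit of 2 groups (0.0763), which tested 29 of the genes. In that comparison the sign of Mcm7 turned with upper-quartile scaling (0.014), without the filter (0.011) and in 7 of 20 fits without 1 library (-0.040 to 0.043), and that of Kif23 in 3 of 20 (-0.086 to 0.364); neither passed, and the cause was not tested. Upper-quartile scaling moved the share of higher calls among all genes from 49.4 to 60.7% with diet, from 50.7 to 37.8% with gRNA and from 49.1 to 55.6% for gRNA against chow. Low counts in chow limit the precision for Cdc6, Bub1, Melk, Aurkb and Cdkn3, among others. No paired analysis was possible because replicate numbers follow accession order and pair no samples.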
